A study of Mus musculus with 10 samples.

Results

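This account covers 8 receptor genes for lipids and small metabolites in stimulated mouse macrophages: Ptafr, Hcar2, Gpr55, S1pr1, Gpr35, Gpr84, Gpr18 and Gpr183. They were selected by gene name and are 8 of 56980 genes in the deposited table. All 8 were found, and 7 of them had enough counts to be tested, among 14436 genes tested in all. The tested macrophages came from mice that lack junctional adhesion molecule-like protein (Jaml) in macrophages, called KO here, and were compared with macrophages of Jaml wild-type mice, called WT. Cells of both genotypes had received 100 ng/ml of lipopolysaccharide (LPS, a bacterial ligand of TLR4) over 8 h, followed by 5 mM ATP over 30 min. Unstimulated macrophages are not part of the comparison. The titles call the tested genotype a macrophage knockout and a genotype tag calls it a knockdown. The labels name no Cre line, tissue of origin, strain, sex or age, and do not say whether libraries came from separate animals, so a p-value here reflects library-to-library spread alone, possibly technical.

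There were 5 KO and 5 WT libraries of 19319512 to 22766319 counts each. The 5 columns taken as KO carry the heading SI, whose meaning the labels do not give, and were assigned by elimination, so every direction rests on that assignment. Jaml had 0 to 2 counts in every library of either genotype and cannot check it. All 7 macrophage markers examined were detected, and their summed level was 21980 to 23993 CPM in KO and 23131 to 24595 CPM in WT libraries. They were not level between genotypes. By edgeR, Fcgr1, a high-affinity IgG receptor, was 3.08-fold lower, at 59.1 ± 7.64 CPM in KO and 182 ± 10.7 CPM in WT (mean ± SD, n = 5 each, adjusted p = 1.76e-07). Mertk, a receptor for apoptotic cells, fell by 0.33 ± 0.06 and Csf1r, the M-CSF receptor, rose by 0.16 ± 0.04 on the log2 scale (± SE), and the other 4, Lyz2, Cd68, Adgre1 and Itgam, did not pass. Their part in the receptor differences was not tested. CPM are counts per 1000000, scaled by library size and composition. KO 1 and KO 3 had the largest composition scaling factors, 1.07 each, against 1.02 to 1.03 in the other KO libraries. WT factors were all lower, at 0.948 to 0.969. By root mean square log2 distance from the rest of its genotype, KO 3 was furthest at 0.442. KO 1, at 0.376, lay within the 0.330 to 0.379 of KO 2, KO 4 and KO 5. In bulk RNA, fewer cells of a type and less RNA per cell cannot be told apart.

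Receptors of this class are 7-transmembrane proteins that couple to heterotrimeric G proteins and let a cell read lipids and metabolites in its surroundings. Ptafr binds platelet-activating factor, an ether phospholipid mediator. S1pr1 binds sphingosine 1-phosphate and is known for guiding lymphocytes out of lymphoid tissue, and Gpr183 binds oxysterols, above all 7α,25-dihydroxycholesterol. Hcar2 responds to niacin, butyrate and the ketone body β-hydroxybutyrate, and Gpr84 to medium-chain fatty acids and their hydroxylated forms. Gpr84 and Hcar2 are known to be induced in macrophages by LPS. Gpr55 is activated by lysophosphatidylinositol, Gpr35 by kynurenic acid among other proposed ligands, and N-arachidonyl glycine is a proposed ligand of Gpr18.

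The 8 genes differed widely in level, from Ptafr at the top to Gpr183 at the limit of detection. Expressed as CPM per kilobase of exon, Ptafr led with 66.0 ± 3.99 in KO and 114 ± 1.00 in WT libraries. Gpr84 followed with 47.5 ± 1.87 in KO and 45.1 ± 1.91 in WT, then Hcar2 with 23.3 ± 0.962 in KO and 35.2 ± 1.33 in WT, and S1pr1 with 9.78 ± 0.940 in KO and 5.99 ± 0.260 in WT (mean ± SD, n = 5 each, as throughout). These 4 receptors kept the same order in both genotypes, and no library of one overlapped its neighbour in that order. By exon length, Gpr18 and Gpr35 came next. With 4839 bases for Gpr35 they were not separable in KO libraries, at 1.97 to 2.68 for Gpr18 and 1.16 to 2.74 for Gpr35. In WT libraries they were apart, at 1.99 to 2.52 for Gpr18 and 0.762 to 1.43 for Gpr35. By the same exon lengths Gpr55 stood far lower, at 0.113 ± 0.0534 in KO and 0.273 ± 0.0305 in WT, and Gpr183 was at the limit of detection. Exon lengths were the union of exons in GENCODE M21. They matched the length implied by the authors' FPKM of the WT libraries within 1 base for 6 genes and differed for Gpr183, at the limit of detection. For Gpr35 the FPKM implied 14324 bases against 4839 bases of exon. The deposited FPKM thus rests on the longer length, while the annotation used for counting is not named. With the longer length Gpr35 would lie below Gpr18 in every library of both genotypes. The overlap in KO libraries holds for the shorter length only. By the deposited FPKM of the WT libraries, Gpr35 had 0.352 ± 0.0759, Gpr18 had 2.25 ± 0.212 and Gpr55 had 0.262 ± 0.0286. By that measure Gpr35 was nearer to Gpr55 than to Gpr18.

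**Figure D1:**
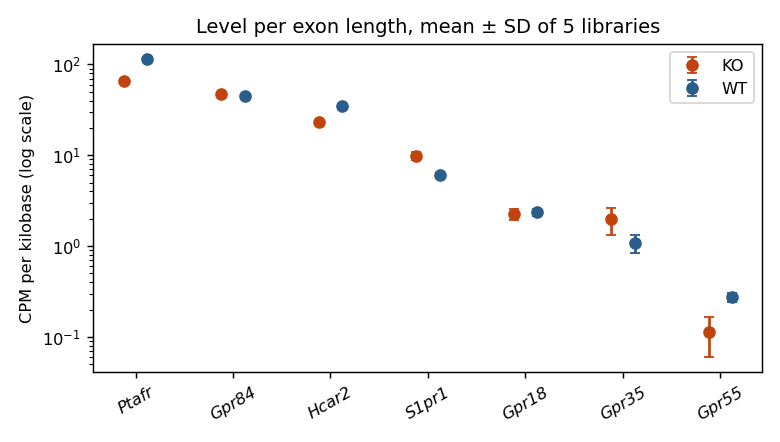
Level of 7 receptor genes as CPM per kilobase of exon on a log scale, with KO in red and WT in blue; points are means and bars the SD of 5 libraries. Ptafr, Gpr84, Hcar2 and S1pr1 keep their order in both genotypes, and Gpr183, at 0 to 3 counts per library, is not drawn. Gpr35 is drawn with 4839 bases of exon and would lie lower with the 14324 bases that the deposited FPKM implies.

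Of the 7 genes tested, 3 fell in KO macrophages, 2 rose and 2 did not pass the test. Ptafr, Hcar2 and Gpr55 fell. S1pr1 and Gpr35 rose. Calls rest on the quasi-likelihood test of edgeR over all genes, at a Benjamini-Hochberg adjusted p below 0.05. By this rule 15.0% of tested genes were lower and 14.1% higher in KO. The median log2 fold change was -0.05 over the 7 receptors and 0.01 over all genes tested. In 4 of the 7 the KO and WT values did not overlap, as was so for 23.3% of all tested genes. The receptors were chosen with earlier results of these data known, so these shares describe them and no more.

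**Figure D2:**
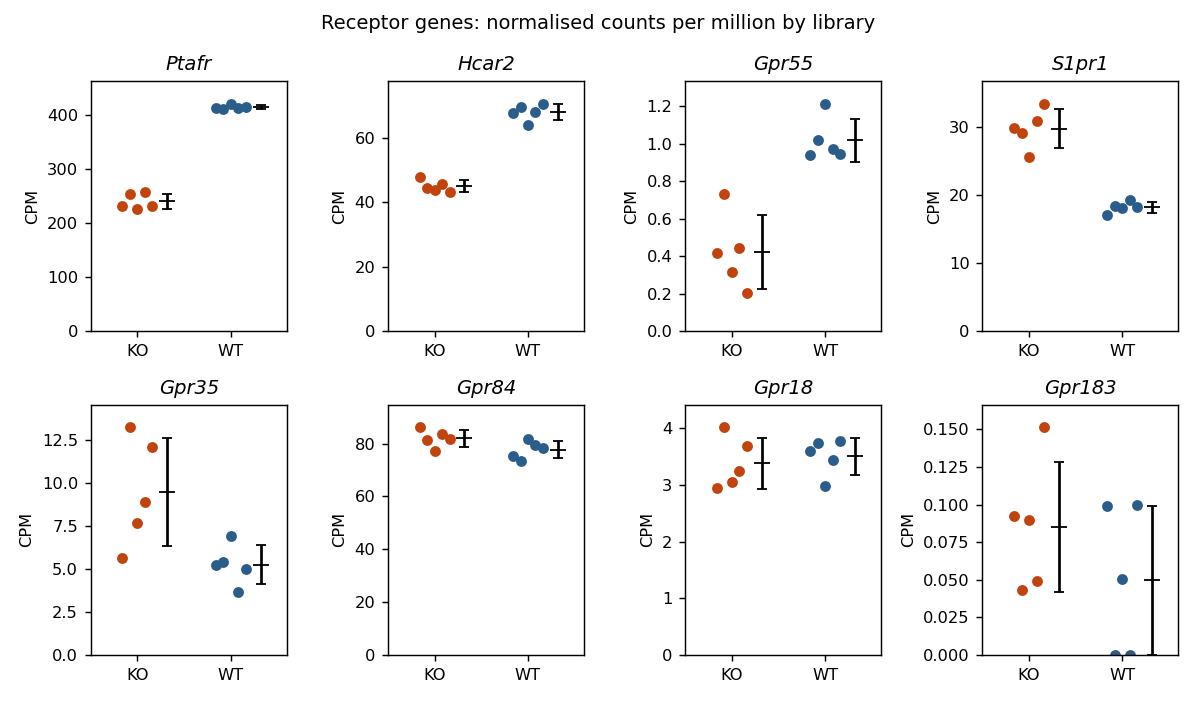
Normalised CPM of the 8 receptor genes in each library, KO at left and WT at right in every panel, with the mean and SD of 5 libraries as a bar beside the points. Ptafr, Hcar2, Gpr55 and S1pr1 show no overlap between genotypes, Gpr35 overlaps, and Gpr84, Gpr18 and Gpr183 overlap widely.

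Ptafr (ENSMUSG00000056529, chromosome 4, 132291378 to 132309994) was the most abundant of the 8 and had the smallest adjusted p. Its level in the 5 KO libraries was 232, 253, 225, 258 and 232 CPM, against 414, 411, 421, 414 and 415 CPM in the WT libraries. Every KO value lay far below every WT value, and the WT libraries were almost alike, with a coefficient of variation of 0.877% against 6.05% in KO. Ptafr was 1.73-fold lower in KO, a log2 fold change of -0.79 ± 0.04 (± SE, here and for later log2 values; edgeR adjusted p = 1.98e-07). The absolute change was larger than that of 94.4% of tested genes. Ptafr had the largest counts behind it, 4604 to 5865 per KO library and 7683 to 8386 per WT library.

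Hcar2 (ENSMUSG00000045502, chromosome 5, 124001633 to 124003562), the Gi-coupled niacin and β-hydroxybutyrate receptor, fell by a smaller factor. It had 47.9, 44.5, 43.7, 45.8 and 43.3 CPM in KO libraries and 67.7, 69.7, 63.9, 68.0 and 70.6 CPM in WT libraries. Both groups were tight and did not overlap. Hcar2 was 1.51-fold lower in KO (log2 fold change -0.59 ± 0.04, edgeR adjusted p = 1.38e-06). Its neighbour on the chromosome and relative Hcar1, the lactate receptor, had at most 3 counts in any library. Mast cells and neutrophils also express receptors of this class, and their markers differed between genotypes at low level. Of 6 mast cell markers 4 were tested and 3 fell (Cpa3, Cma1 and Tpsb2), with sums of 4.27 to 5.44 CPM in KO and 7.48 to 13.5 CPM in WT libraries. Cpa3, with 5 to 29 counts in KO and 18 to 53 in WT libraries, passed the filter on low counts through WT alone. Of 6 neutrophil markers 1 was tested and rose (Camp), Mpo had at most 1 count in any library, and the sums were 2.68 to 4.24 CPM in KO and 2.42 to 3.13 CPM in WT libraries. The part of these cells in the receptor differences was not tested.

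Gpr55 (ENSMUSG00000049608, chromosome 1, 85866039 to 85888729), the lysophosphatidylinositol receptor, showed the largest fold of the 5 and rests on the fewest reads. Its counts were 9, 17, 7, 9 and 4 in KO libraries, against 19, 19, 24, 19 and 19 in WT libraries. The groups did not overlap, though KO 2 came within 2 counts of the lowest WT library. Gpr55 was 2.37-fold lower in KO (log2 fold change -1.25 ± 0.28, edgeR adjusted p = 0.00501). It passed the filter on low counts through the WT libraries alone, where it is high, and without any filter the adjusted p was 0.0125. Its span in the deposited table overlaps 4933407L21Rik, which had 0 counts throughout.

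S1pr1 (ENSMUSG00000045092, chromosome 3, 115504082 to 115508721), the sphingosine 1-phosphate receptor, rose. It had 29.9, 29.2, 25.6, 30.9 and 33.5 CPM in KO libraries, against 17.1, 18.4, 18.1, 19.4 and 18.3 CPM in WT libraries. The lowest KO library lay above the highest WT library. S1pr1 was 1.63-fold higher in KO (log2 fold change 0.71 ± 0.07, edgeR adjusted p = 1.3e-05). Because stromal, endothelial and lymphoid cells also carry S1pr1, their markers are given beside it. Of 6 mesothelial and fibroblast markers, 3 rose (Col1a1, Col1a2 and Dcn) and 1 fell (Upk3b), and their summed level was 585 to 748 CPM in KO and 546 to 606 CPM in WT libraries. In library order that sum was 726, 659, 748, 669 and 585 CPM in KO. In WT it was 548, 560, 601, 606 and 546 CPM. Of 6 endothelial markers 3 were tested, and none rose. Kdr fell, at 8.43 ± 0.956 CPM in KO and 23.1 ± 1.62 CPM in WT. Vwf, the most abundant, did not pass, at 30.8 ± 3.75 CPM in KO and 26.8 ± 1.05 CPM in WT. Cdh5 did not pass either, at 2.82 ± 0.480 CPM in KO and 2.87 ± 0.699 CPM in WT. Emcn had 0 counts in every library and Tek and Cldn5 had at most 2. The endothelial sum was 37.8 to 46.4 CPM in KO and 47.9 to 56.0 CPM in WT libraries. Of 6 T and NK cell markers only 1, Lck, was tested, and it did not pass. Lck had 2.20 ± 0.484 CPM in KO and 2.48 ± 0.284 CPM in WT. Cd3e and Ncr1 of that list had 0 counts in every library. The part of these cells in the S1pr1 difference was not tested.

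Gpr35 (ENSMUSG00000026271, chromosome 1, 92878587 to 92914113), a receptor for kynurenic acid, rose on average but varied among KO libraries. It had 5.62, 13.2, 7.70, 8.89 and 12.1 CPM in KO libraries and 5.23, 5.40, 6.92, 3.69 and 5.03 CPM in WT libraries. KO 2 and KO 5 were high, whereas KO 1 fell within the WT range, so the groups overlapped. Gpr35 was 1.81-fold higher in KO (log2 fold change 0.86 ± 0.23, edgeR adjusted p = 0.0153), with a coefficient of variation of 33.0% in KO and 21.9% in WT. KO 1 and KO 3 were its lowest KO libraries, so leaving both out was bound to raise the fold. The log2 fold change was then 1.12 (edgeR adjusted p = 0.0016), which adds no support to the rise.

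**Figure D3:**
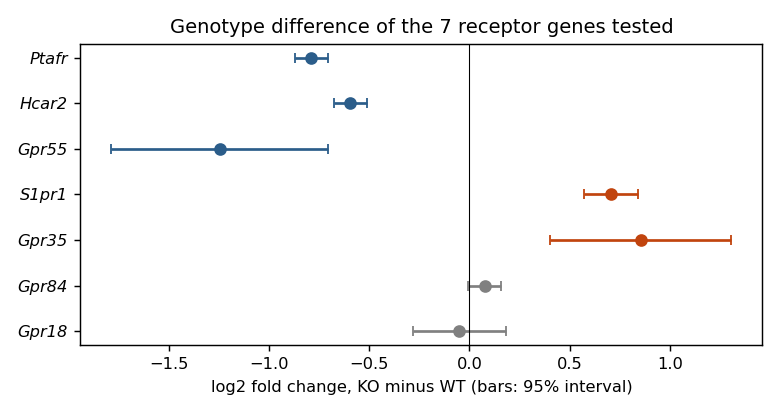
Log2 fold change of the 7 tested receptor genes, KO minus WT, with bars showing the 95% interval; blue marks genes called lower, red genes called higher and grey genes not called. The intervals of Gpr84 and Gpr18 include 0, and those of Gpr55 and Gpr35 are the widest.

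Gpr84 (ENSMUSG00000063234, chromosome 15, 103216662 to 103219039), the medium-chain fatty acid receptor, was abundant and differed little. It had 86.1, 81.2, 77.3, 83.5 and 81.7 CPM in KO libraries, against 75.5, 73.5, 81.8, 79.6 and 78.4 CPM in WT libraries. The values overlapped, with a log2 fold change of 0.08 ± 0.04, a 95% interval of -0.01 to 0.16 and an edgeR adjusted p of 0.209. The call depended on the scaling. With library totals in place of the composition factors, under which the median over all genes was 0.12 instead of 0.01, Gpr84 had a log2 fold change of 0.19 and an adjusted p of 0.00374. By that scaling 9.43% of tested genes were lower and 29.3% higher. The overlapping noncoding gene Gm49482 averaged 0.385 ± 0.151 CPM in KO and 0.415 ± 0.223 CPM in WT libraries.

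Gpr18 and Gpr183 lie side by side on chromosome 14, separated by 36769 bases, and both within the span of Ubac2, which GENCODE M21 places on the opposite strand. Gpr18 (ENSMUSG00000050350, 122148665 to 122153193) had 2.95, 4.01, 3.04, 3.24 and 3.68 CPM in KO libraries and 3.60, 3.75, 2.98, 3.43 and 3.78 CPM in WT libraries. The ranges were much the same. Its log2 fold change was -0.05 ± 0.12, with a 95% interval of -0.28 to 0.18 (edgeR adjusted p = 0.794). The sign turned with library totals, to 0.06, and without KO 1 and KO 3, to 0.06. Gpr183 (ENSMUSG00000051212, 122189963 to 122202607), the oxysterol receptor, had 2, 1, 2, 1 and 3 counts in KO libraries and 2, 0, 1, 0 and 2 in WT libraries. No library exceeded the floor of 3 counts, equal to 0.129 to 0.161 CPM, a limit that covers counting error only. At this depth Gpr183 RNA was not detectable in KO or in WT macrophages, so a fold was not computed. Ubac2 averaged 36.3 ± 2.23 CPM in KO and 33.5 ± 0.535 CPM in WT libraries (edgeR adjusted p = 0.101). The strand setting of the counting is not given in the sources used here, so reads of Ubac2 and of these receptors cannot be told apart with certainty. Both receptors are also found on lymphocytes. Of 6 B cell markers, 1 was tested and fell (Ighm), and the list summed to 0.690 to 1.57 CPM in KO and 1.64 to 3.91 CPM in WT libraries. Ighm had 5 to 18 counts in KO and 21 to 53 in WT libraries. It passed the filter on low counts through the WT libraries alone.

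The tables of RefSeq promoters (build GRCm38.p6) held entries for 6 of the 8 receptor genes, with 7 starts. The 250 bases before the start are shown for the 3 starts with a motif match, of Gpr55, Gpr35 and Gpr18, and for Ptafr, the most abundant receptor, which had none. Capitals mark matches on either strand to an interferon response element (ISRE, GAAA and GAAA separated by 2 bases), a STAT element (GAS, TTCNNNGAA), a kappaB element (GGGA and TTCC separated by 2 bases) or a PU.1 element (GAGGAAG). Each sequence is read 5′ to 3′ on the strand that the RefSeq table gives. For Gpr35 and Ptafr, bases just after the start were found in a GENCODE M21 transcript of the gene. For Gpr55 and Gpr18 they were not found, so those starts and motif distances rest on RefSeq alone. The Gpr35 and Ptafr windows, upstream on the plus strand, lie past the ends of the gene spans given above. Those spans are thus not in GRCm38 coordinates, and positions of spans and windows cannot be compared.
Gpr55, chr1:85961056-85961305, minus strand: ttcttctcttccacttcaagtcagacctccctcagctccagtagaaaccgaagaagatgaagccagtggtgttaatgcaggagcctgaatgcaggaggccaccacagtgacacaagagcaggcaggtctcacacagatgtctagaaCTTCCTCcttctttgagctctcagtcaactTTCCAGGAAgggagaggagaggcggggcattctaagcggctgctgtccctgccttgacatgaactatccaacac
Gpr35, chr1:92978653-92978902, plus strand: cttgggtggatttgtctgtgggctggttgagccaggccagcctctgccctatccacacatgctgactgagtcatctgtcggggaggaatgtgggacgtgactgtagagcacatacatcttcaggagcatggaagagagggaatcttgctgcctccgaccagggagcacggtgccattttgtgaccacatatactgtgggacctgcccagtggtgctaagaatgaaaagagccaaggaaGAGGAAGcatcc
Ptafr, chr4:132563817-132564066, plus strand: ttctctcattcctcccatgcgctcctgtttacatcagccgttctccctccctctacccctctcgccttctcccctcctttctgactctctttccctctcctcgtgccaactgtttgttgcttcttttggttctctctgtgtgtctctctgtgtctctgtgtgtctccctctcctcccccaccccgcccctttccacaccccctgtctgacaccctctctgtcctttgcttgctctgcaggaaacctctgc
Gpr18, chr14:121915889-121916138, minus strand: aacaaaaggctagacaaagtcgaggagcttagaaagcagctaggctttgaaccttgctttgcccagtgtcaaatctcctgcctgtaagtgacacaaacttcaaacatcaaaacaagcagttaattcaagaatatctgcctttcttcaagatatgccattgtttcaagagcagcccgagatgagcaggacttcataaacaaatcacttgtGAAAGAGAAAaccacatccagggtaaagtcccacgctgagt
The Gpr55 window held a GAS match that begins 74 bases before the start and a PU.1 match at 104 bases, which do not overlap. The second Gpr35 start had a PU.1 match at 12 bases. The Gpr18 window held an ISRE match at 41 bases, and the Ptafr window, rich in pyrimidines, held none of these motifs. Of 32851 RefSeq windows of the same length, 2.98% held the ISRE, 7.02% the GAS, 1.21% the kappaB and 10.6% the PU.1 letters. A match describes the letters in the window and is not evidence of binding.

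The genes most like each receptor were found by the root mean square (RMS) difference between log2 CPM profiles, each centred on its own mean over the 10 libraries, among 8807 or 8808 well-expressed genes. Ptafr was closest to Sema4d, a semaphorin, at an RMS difference of 0.019, and to Adora2a, a Gs-coupled adenosine receptor, at 0.036, against a median of 0.42 over all candidates. Hcar2 was closest to Iqsec2 at 0.033 and Ell2 at 0.041, with a median of 0.32. S1pr1 was closest to Cd24a, a surface glycoprotein, at 0.058 and Nuak1 at 0.080, with a median of 0.38. The noisy Gpr55 was nearest to the interferon-stimulated genes Oas3 and Isg15, at 0.22 and 0.23 against a median of 0.70. Gpr35 was nearest to Tiam1 and Acot11 at 0.28 and 0.29, with a median of 0.56. Gpr84 was nearest to Ubxn1 and Rnf5 at 0.030 and 0.032, and Gpr18 to Ddx10 and Retreg3 at 0.080 and 0.088, all genes with little difference between genotypes. For the called receptors the median was close to the receptor's own spread about its mean, 0.40 for Ptafr and 0.69 for Gpr55. The nearest of so many genes must fall below it. A small distance here largely reflects a like genotype difference, with log2 fold changes of -0.80 for Sema4d, -1.26 for Oas3 and -1.23 for Isg15. Shared control was not tested. These distances are descriptions of 10 libraries, and no test was made.

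Related genes were taken from lists of other receptors, ligand-making enzymes and signalling parts. Of 112 such genes tested, 24 fell, 29 rose and 59 did not pass, which is 21.4% lower and 25.9% higher beside 15.0% and 14.1% of all genes. With library totals 16 fell and 43 rose. The median log2 fold change over the 112 was 0.02.

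**Figure D4:**
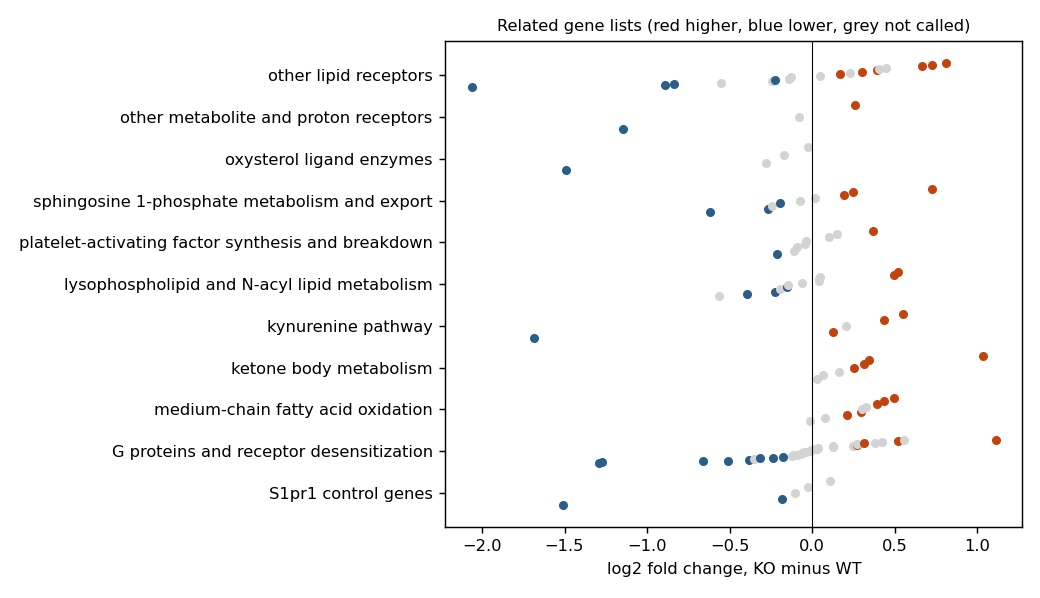
Log2 fold change, KO minus WT, of every tested gene in the 11 related lists; red marks genes called higher, blue genes called lower and grey genes not called. Called genes lie on both sides of 0 in most lists, whereas ketone body metabolism and medium-chain fatty acid oxidation hold called genes only above 0.

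Among 33 other lipid receptors, 18 were tested, 4 fell, 6 rose and 8 did not pass (median log2 fold change 0.11). Cysltr2, a cysteinyl leukotriene receptor, was 4.18-fold lower, at 0.559 ± 0.244 CPM in KO and 2.36 ± 0.465 CPM in WT. It had 5 to 17 counts in KO and 36 to 58 in WT libraries. Cysltr2 thus passed the filter on low counts through the WT libraries alone, where it is high. Its call held in all 17 alternatives, no filter included. Ptger4, a Gs-coupled prostaglandin E2 receptor, was 1.76-fold higher, at 8.84 ± 0.815 CPM in KO and 5.03 ± 0.664 CPM in WT. Cnr2, the peripheral cannabinoid receptor, and Lpar6, a lysophosphatidic acid receptor, rose by log2 fold changes of 0.72 ± 0.09 and 0.66 ± 0.07. Ptgir, the prostacyclin receptor, rose slightly to 156 ± 3.15 CPM in KO, against 139 ± 5.95 CPM in WT. Ptger2, P2ry10b and Cysltr1 did not pass, with log2 fold changes of -0.13 ± 0.06, -0.14 ± 0.09 and -0.24 ± 0.10. P2ry10b passed without WT 3 (adjusted p = 0.0125) and Cysltr1 without KO 4 (adjusted p = 0.0123). 

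The sphingosine 1-phosphate receptors moved in different directions. S1pr2, a relative of S1pr1 that couples to G12/13, fell a little, to 195 ± 8.77 CPM in KO against 229 ± 5.88 CPM in WT (log2 fold change -0.23 ± 0.04, edgeR adjusted p = 0.000861). S1pr3, named after its value was seen, had 0.782 ± 0.350 CPM in KO and 1.46 ± 0.156 CPM in WT (edgeR adjusted p = 0.0292), a call lost in 9 of 17 alternative settings. With 7 to 26 counts in KO and 24 to 33 in WT libraries, S1pr3 passed the filter on low counts through WT alone. S1pr4, also named after its value was seen, had a log2 fold change of 0.05 ± 0.20. Gna13, the G13 subunit, was 1.42-fold lower. Gna12, the G12 subunit, also named after its value was seen, was 1.24-fold higher (edgeR adjusted p = 0.00113).

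Of 12 other receptors for metabolites and protons only 3 had enough counts to be tested. Gpr65, a proton sensor, rose to 14.2 ± 0.516 CPM in KO against 11.8 ± 0.493 CPM in WT, and Gpr31b fell by a log2 fold change of 1.15 ± 0.24 at about 1 CPM. The succinate receptor gene Sucnr1, the oxoglutarate receptor gene Oxgr1 and the short-chain fatty acid receptor gene Ffar3 had 0 counts in every library.

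Enzymes that make or remove the receptors' ligands were read next. Ch25h, cholesterol 25-hydroxylase, which opens the route to the Gpr183 ligand, had 7.41 to 10.8 CPM in KO and 23.6 to 29.1 CPM in WT libraries. It was 2.82-fold lower in KO (edgeR adjusted p = 7.58e-07). The other 3 tested oxysterol enzymes did not pass, with log2 fold changes of -0.17 ± 0.27 for Cyp7b1, -0.02 ± 0.12 for Cyp27a1 and -0.28 ± 0.38 for Hsd3b7. Hsd3b7 varied widely within genotypes, at 17.2 to 65.0 CPM in KO and 26.0 to 56.2 CPM in WT libraries.

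In sphingosine 1-phosphate metabolism 3 of 9 tested genes fell and 3 rose (median log2 fold change -0.08). Sphk1, the kinase that makes sphingosine 1-phosphate, was 1.65-fold higher, at 9.32 ± 0.257 CPM in KO and 5.63 ± 0.669 CPM in WT. The phosphatase genes that act on it, Sgpp1 and Plpp1, rose by 0.24 ± 0.05 and 0.19 ± 0.04 on the log2 scale. The ceramidase gene Asah2 was 1.53-fold lower. The ceramidase gene Acer3 and the phosphatase gene Plpp3 had log2 fold changes of -0.27 ± 0.05 and -0.19 ± 0.04, calls that were lost with library totals (adjusted p = 0.0759 and 0.0659). Sgpl1, the lyase, Asah1 and Sphk2 did not pass, with log2 fold changes of -0.08 ± 0.04, 0.02 ± 0.12 and -0.24 ± 0.11.

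Genes tied to S1pr1 control were examined as well. Cd69, whose protein binds S1pr1 and takes it off the cell surface, was 2.85-fold lower, at 8.06 to 11.7 CPM in KO and 26.6 to 35.6 CPM in WT libraries (edgeR adjusted p = 1.59e-06). Klf2 and Foxo1, transcription factors that act upstream of S1pr1 in T cells, did not pass, with log2 fold changes of -0.10 ± 0.09 and 0.11 ± 0.05. Dnm2 did not pass either, at -0.03 ± 0.04. The ubiquitin ligase gene Wwp2 fell by 0.18 ± 0.05 on the log2 scale, a call lost with library totals (adjusted p = 0.238) and without KO 1 and KO 3. With library totals Foxo1 passed (adjusted p = 0.0149).

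For platelet-activating factor, 1 of 8 genes rose and 1 fell. Pafah2, which degrades it inside the cell, rose by 0.37 ± 0.05 on the log2 scale. Lpcat2, which makes it in activated macrophages, had 108 ± 6.78 CPM in KO and 125 ± 8.21 CPM in WT (edgeR adjusted p = 0.0149), a call lost with library totals (adjusted p = 0.225), without WT 1 and without a filter. Pla2g7, the secreted acetylhydrolase, was abundant at 1257 ± 48.6 CPM in KO and 1343 ± 60.2 CPM in WT and did not pass (adjusted p = 0.0982), nor did Pafah1b1 and Pafah1b2. 

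Around the ligands of Gpr55 and Gpr18, 3 of 12 tested genes fell and 2 rose. Naaa and Napepld, enzymes that degrade and make N-acylethanolamines, were 1.41-fold and 1.43-fold higher in KO. Abhd12 fell by 0.39 ± 0.11 on the log2 scale, a call lost without KO 1 and KO 3 (adjusted p = 0.0838), and Dagla and Mgll, which make and hydrolyse 2-arachidonoylglycerol, fell by 0.23 ± 0.06 and 0.15 ± 0.04, calls lost with library totals (adjusted p = 0.115 and 0.504). Dagla was also lost without KO 1 and KO 3, and Mgll without a filter and with the replicate block. Ddhd1, a phospholipase that produces lysophosphatidylinositol, had a log2 fold change of -0.20 ± 0.09 and did not pass, though it did without KO 1 and KO 3 (adjusted p = 0.0279). Gde1 and Gdpd1 did not pass, with -0.06 ± 0.03 and 0.04 ± 0.04. With library totals Gde1 turned positive (0.05) and Gdpd1 passed (adjusted p = 0.0117).

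In the kynurenine pathway, which feeds a Gpr35 ligand, 5 of 12 genes were tested, 1 fell and 3 rose. Kyat1 and Kyat3, aminotransferases that form kynurenic acid, were 1.46-fold and 1.35-fold higher in KO. Kyat3 averaged 5.06 ± 0.458 CPM in KO and 3.74 ± 0.417 CPM in WT. Kynu, kynureninase, was 3.21-fold lower at 0.791 ± 0.377 CPM in KO and 2.56 ± 0.577 CPM in WT. Got2, a mitochondrial aminotransferase, rose by 0.12 ± 0.04 on the log2 scale and lost its call without KO 4 or KO 5 and with the replicate number as a block (adjusted p up to 0.0789). Ido1 had at most 6 counts in any library and was not tested, and Afmid had 0.20 ± 0.25.

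Genes of ketone body metabolism and of medium-chain fatty acid oxidation moved upward where they were called. Hcar2 reads a ketone body and Gpr84 medium-chain fatty acids, whose levels were not measured. Of 7 ketone body genes tested, 4 rose and none fell (median log2 fold change 0.25). Bdh1, β-hydroxybutyrate dehydrogenase, was 2.04-fold higher at 2.67 ± 0.385 CPM in KO and 1.30 ± 0.340 CPM in WT, and the acetoacetyl-CoA thiolase gene Acat1 was 1.27-fold higher. The monocarboxylate transporter gene Slc16a1 and its relative Slc16a6 rose by 0.31 ± 0.08 and 0.25 ± 0.07 on the log2 scale. Oxct1 and Bdh2 did not pass, with 0.06 ± 0.15 and 0.16 ± 0.28.

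Of 9 genes of medium-chain fatty acid oxidation tested, 5 rose and none fell (median log2 fold change 0.30). Hadh, the 3-hydroxyacyl-CoA dehydrogenase, was 1.41-fold higher at 39.1 ± 2.89 CPM in KO and 27.8 ± 2.20 CPM in WT. Acadm, the medium-chain acyl-CoA dehydrogenase, was 1.31-fold higher. Eci1, Acot13 and Crot rose by 0.44 ± 0.08, 0.29 ± 0.05 and 0.21 ± 0.06 on the log2 scale. Hadha, Echs1 and Acads did not pass, with 0.08 ± 0.03, 0.30 ± 0.15 and -0.02 ± 0.11, and Hadha and Echs1 passed with library totals. Hadha also passed without WT 1, and Echs1 without WT 5 and with the replicate number as a block.

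Of 32 tested G proteins and regulators of receptor signalling, 8 fell, 4 rose and 20 did not pass (median log2 fold change -0.03). The abundant subunits Gnai2 and Gnas, of the Gi and Gs proteins, and Gnb1 had log2 fold changes of -0.04 ± 0.03, -0.01 ± 0.04 and -0.11 ± 0.07, with Gnas passing with library totals and Gnb1 without WT 2. Rgs2, which speeds GTP hydrolysis by Gq, was 2.16-fold higher at 7.69 ± 1.26 CPM in KO and 3.55 ± 0.0857 CPM in WT. Rgs14, which acts on Gi, was 1.58-fold lower and the β subunit gene Gnb4 was 2.41-fold lower. The receptor kinase gene Grk5 was 1.43-fold higher, and the β-arrestin 2 gene Arrb2 fell by 0.24 ± 0.04 on the log2 scale.

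**Figure D5:**
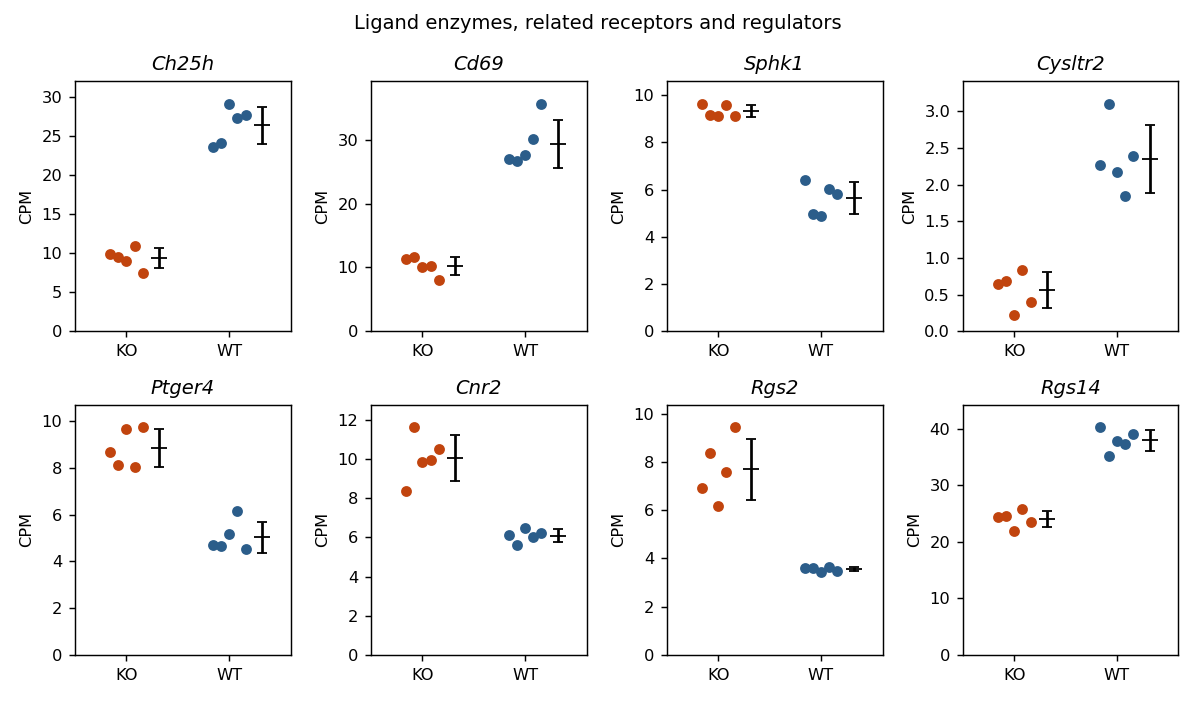
Normalised CPM in each library of 8 related genes, KO at left and WT at right in every panel, with the mean and SD of 5 libraries beside the points. In all 8 panels the genotypes are apart: Ch25h, Cd69, Cysltr2 and Rgs14 are lower in KO, and Sphk1, Ptger4, Cnr2 and Rgs2 are higher.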

How the data were processed

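RNA of mouse macrophages was sequenced, and the authors deposited a whole-number count and an FPKM value for each gene, per the file headers. The deposited FPKM of the WT libraries is proportional to count over gene length and library total. It served here only to recover that length and to set Gpr35 beside Gpr18 and Gpr55. The FPKM of the SI libraries, 5 columns, were not used. The submitters' processing notes name CASAVA 1.8, TopHat2 2.0.6 and the builds mm10 and GRCm39, with no role for either build. No source used here names the counter, annotation, filters or strand setting. Coordinates of genes are as the table lists them and do not match those of the GRCm38.p6 promoter windows. WT columns were matched by name, and SI columns were taken as KO by elimination.

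Genotypes were compared, KO minus WT, in R 4.3.3 with edgeR 4.0.16: TMM factors, filterByExpr (minimum count 10), and the quasi-likelihood F test, p-values being adjusted by Benjamini-Hochberg across all 14436 genes kept. SEs were derived from each fold change and its F value. Library totals set the precision, with a floor of 3 counts. The procedure was tested on simulated data.

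The members and lists were chosen with earlier results of these data known. Named genes were the members, the genes overlapping them, the 2 most alike for each, and, for every related list, up to 6 called genes with the smallest p and the 3 most abundant uncalled ones. Marker genes are named beside the results they touch. Alternatives were DESeq2 size factors, library totals, no filter, DESeq2 1.42.0, limma-voom (limma 3.58.1), a replicate block, each library left out, and KO 1 and KO 3 left out. Some genes of these lists are not reported here.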

Additional observations from a re-analysis of the deposited data

Results flagged for a closer look

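The Gpr55 value of WT 3, at 1.21 CPM from 24 counts, lay apart from the other WT libraries, where Gpr55 had 19 counts each. The gap to its neighbour was 0.713 of the range of the 5 libraries, just past Dixon's critical value for 5 samples. This was 1 of 14 groups examined. Chance flags about 1 in 20 groups, so 1 flag among 14 is not unusual. Without WT 3 the log2 fold change of Gpr55 was -1.16 (edgeR adjusted p = 0.0151).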

How the results depend on the processing

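Under 17 alternatives, the 5 called receptors kept their direction and call in every one: the log2 fold change was -0.81 to -0.67 for Ptafr, -0.62 to -0.48 for Hcar2, -1.55 to -1.08 for Gpr55, 0.66 to 0.82 for S1pr1 and 0.70 to 1.12 for Gpr35. The highest adjusted p was 0.0389 for Gpr35 and 0.0321 for Gpr55. Gpr84 passed only with library totals (0.19). Gpr18, never called, turned positive with library totals (0.062) and without KO 1 and KO 3 (0.056). The cause was not tested. Of 53 called related genes, 41 kept their call in every alternative and 8 lost it with library totals. With the replicate number as a block, 3 receptors were lower and 2 higher, and Ptafr had -0.79. Same-numbered libraries correlated at -0.11 to 0.18 in their deviations from the genotype means, and 3 of 10 libraries correlated best with their own number. The labels do not say whether same-numbered libraries were prepared together, and these values cannot settle it. Depth limits Gpr183 and Gpr55.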
